A study of Rattus norvegicus with 2 samples.

Results

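The expression of 79 potassium channel genes was examined in the rat basilar artery after bilateral common carotid artery (CCA) ligation. They are the genes with a named probe set whose symbol starts with Kcn, without the BK subunits Kcnma1, Kcnmb1, Kcnmb2 and Kcnmb4, the KATP subunits Kcnj8 and Kcnj11 and the glial channel Kcnj10. The 79 genes were read by 81 probe sets, out of 15037 named genes on the array, and Kcnip2 was the only one with more than 1 probe set. RNA was compared on 2 Clariom S rat arrays, 1 for Ligation and 1 for Sham. The Ligation array held equal amounts of RNA from 4 male Sprague-Dawley rats, 13 months old by the labels, whose CCAs had been tied on both sides 4 weeks earlier. The Sham array held RNA from 4 such rats whose CCAs had been exposed but not tied. Each array is thus a pool with no replicate, so every difference below lies between 2 pools and carries no SD, test or p-value. In such tissue RNA, fewer cells of a type and less RNA per cell cannot be told apart.

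Potassium channels let potassium leave the cell, which makes the membrane potential of arterial smooth muscle more negative, keeps voltage-gated calcium channels closed and favors a wide vessel. Voltage-gated (Kv) channels open on depolarization and are built from pore subunits, some of which are silent on their own, together with accessory subunits. Inward rectifiers (Kir) and 2-pore-domain (K2P) channels set the resting potential, and calcium-activated channels of the endothelium carry hyperpolarization that spreads to the muscle layer. The same gene families serve neurons, glia, epithelia and immune cells.

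Most of these genes were dim on both arrays. Signals were set against 23 antigenomic probe sets, which match no transcript of the animal. The brightest of these read 156.8 on the Ligation array and 150.9 on the Sham array, and a signal no higher than this is called within background. On at least 1 array, 13 of the 79 genes (16.5%) were above it, compared with 51.5% of all named genes. The other 66 genes were within background on both arrays, with signals from 9.81 to 156.5 after ligation and from 9.97 to 135 after sham operation. A gene within background is not shown to be absent, because 11 antigenomic probe sets, those with 8 to 18 G or C bases, read only from 8.58 to 44.2. The genes closest to the level were Kcnk6 just inside it, with 165 on the Ligation array, and Kcnj2 just outside, with 156.5.

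Past 2-fold, 3 of the 79 genes were higher after ligation and 4 were lower. Over all named genes, 4.04% were over 2-fold higher and 2.97% over 2-fold lower, and the 8.86% of potassium channel genes past 2-fold in either direction was near the 7.01% of all named genes. Their median log2 difference (Ligation minus Sham) was -0.10, against -0.01 over all named genes, and 36 of them (45.6%) were above 0, compared with 48.7% of all named genes. The sign of this median turned after quantile normalization and after removal of the intensity trend, to 0.04 in both, with 42 and 44 genes above 0. Among genes within background on both arrays, the median was -0.07 for the 66 potassium channel genes and -0.10 for all named genes. Above 0 were 45.5% of the former and 40.4% of the latter. Of the 7 genes past 2-fold, Kcnab1 and Kcne4 were lower and Kcnk2 was higher with both signals above background, where 1.52% of all named genes were over 2-fold lower and 2.32% over 2-fold higher. Kcna5 and Kcnn4 crossed the background level between the arrays, and Kcna10 and Kcnk10 stayed within it on both.

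**Figure D1:**
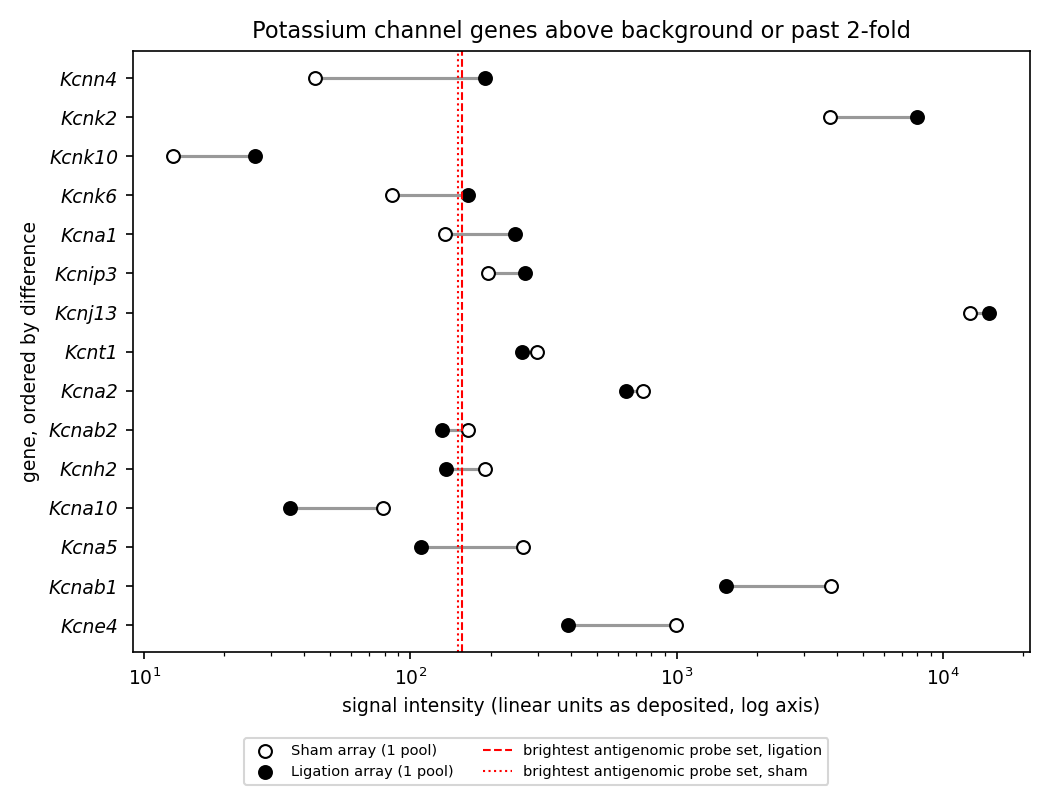
Signal intensity (log axis, linear units as deposited) of the 13 genes above background and of Kcna10 and Kcnk10, ordered by their difference. Open points are the Sham pool, filled points the Ligation pool, and red lines mark the brightest antigenomic probe set of each array. Kcne4 and Kcnab1 move left and Kcnk2 moves right with both points beyond the lines.

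**Figure D2:**
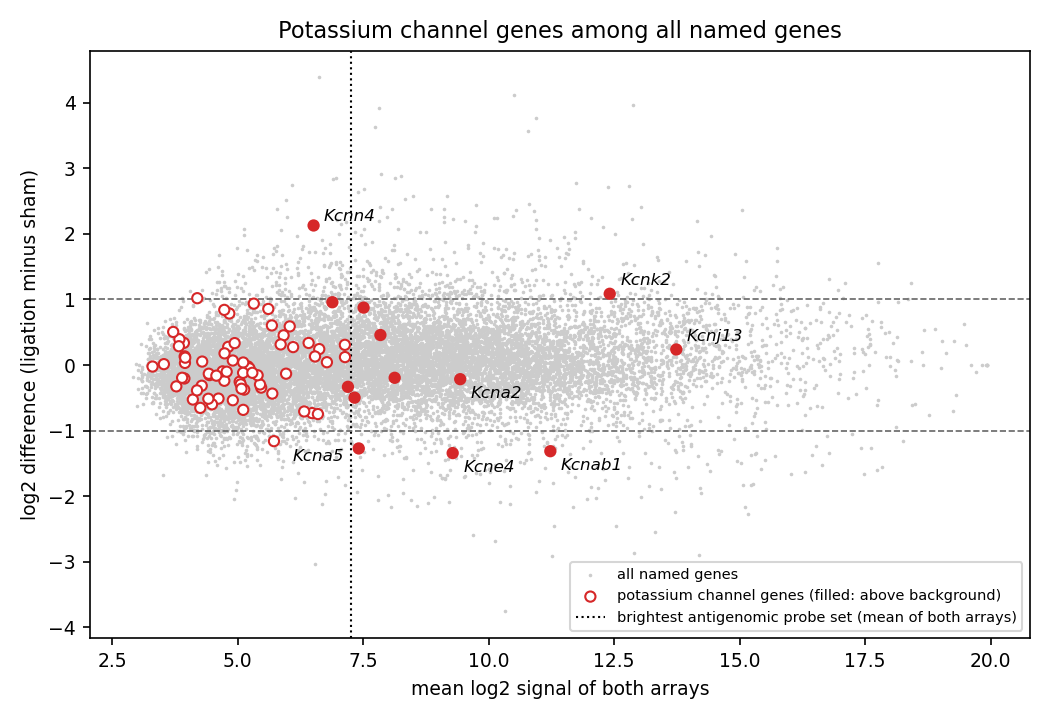
Log2 difference (Ligation minus Sham) against the mean log2 signal of both arrays, for all named genes (grey) and the 79 potassium channel genes (red, filled where above background on at least 1 array). Dashed lines mark 2-fold and the dotted line marks the brightest antigenomic probe set. Of the 79 genes, 66 are open points within background.

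Of the 5 genes past 2-fold and above background on at least 1 array, 4 had a promoter sequence in RefSeq. These 4 are shown, of which Kcnab1, Kcne4 and Kcna5 were lower after ligation and Kcnk2 was higher. Kcna5 passed this filter only through the Sham array, where it was higher, and Kcna10, also over 2-fold lower, did not pass it. Each sequence is the 250 bases before the start of the gene in the build GRCr8. Promoters were matched for 55 of the 79 genes. These starts need not be the ones used in the artery. The windows are chr2:151614301-151614550 on the plus strand, chr9:87695798-87696047 on the plus strand, chr4:161043810-161044059 on the minus strand and chr13:103438643-103438892 on the minus strand, each printed 5′ to 3′ along its gene. Capitals mark matches to an E-box (CANNTG) or a GC box (GGGCGG) on either strand.
Kcnab1: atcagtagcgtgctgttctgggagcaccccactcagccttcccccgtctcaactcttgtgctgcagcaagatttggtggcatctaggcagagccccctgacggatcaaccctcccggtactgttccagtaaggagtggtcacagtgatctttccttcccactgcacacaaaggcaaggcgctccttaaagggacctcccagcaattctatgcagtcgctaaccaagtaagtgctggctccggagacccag
Kcne4: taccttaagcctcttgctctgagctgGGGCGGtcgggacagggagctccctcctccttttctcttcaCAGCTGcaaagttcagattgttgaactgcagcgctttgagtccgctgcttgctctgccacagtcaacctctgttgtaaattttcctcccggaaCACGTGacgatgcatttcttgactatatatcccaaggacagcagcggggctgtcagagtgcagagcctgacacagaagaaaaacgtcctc
Kcna5: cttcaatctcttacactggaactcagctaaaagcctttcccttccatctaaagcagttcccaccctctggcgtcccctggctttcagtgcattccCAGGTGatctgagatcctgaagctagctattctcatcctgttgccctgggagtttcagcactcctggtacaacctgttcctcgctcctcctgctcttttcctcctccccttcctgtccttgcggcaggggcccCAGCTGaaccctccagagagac
Kcnk2: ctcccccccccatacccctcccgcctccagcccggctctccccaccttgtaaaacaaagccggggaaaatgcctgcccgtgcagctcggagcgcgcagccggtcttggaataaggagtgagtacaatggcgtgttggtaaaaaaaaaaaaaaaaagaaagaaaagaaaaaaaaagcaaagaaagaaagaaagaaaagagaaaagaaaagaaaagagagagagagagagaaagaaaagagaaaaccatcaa

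The 3 windows of lower genes shared little in these letters. Kcne4 and Kcna5 had 2 E-boxes each, Kcnab1 had none, and Kcne4 also had a GC box. An E-box stood in 65.2% of 27457 rat windows of this length and in 65.5% of the 55 matched potassium channel genes, and a GC box in 32.4% and 47.3%. The CArG box of smooth muscle genes was found in none of the 55 windows and in 1.5% of all windows. The AP-1 motif TGANTCA was found in 2 of the 55 (3.64%) and in 6.36% of all windows, and TATAAA in 3.64% and 13.1%. The window of Kcnk2 held an unbroken run of 67 purines, against at most 10 in the other 3. Each match is a description of letters, not a site.

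The accessory subunits of Kv channels held the largest decreases. Kcnab1 encodes a cytoplasmic β subunit that binds Kv1 channels and speeds their inactivation. Its signal was 1523 on the Ligation array and 3788 on the Sham array. It was 2.49-fold lower after ligation, a log2 difference of -1.31. Kcne4 encodes a single-span membrane subunit that inhibits some Kv1 channels and associates with Kv7 channels in arteries. Its signal was 391 after ligation and 993 after sham operation. It was 2.54-fold lower, with a log2 difference of -1.34, the lowest of all 79 genes. Both genes, whose promoter windows are printed above, were above background on both arrays and stayed over 2-fold lower under every scaling and offset tried. Median and housekeeping centring shift all genes down here, so they could not have weakened these decreases. Of all named genes, 2.95% differed by as much as Kcnab1 in either direction and 2.75% by as much as Kcne4.

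Related accessory genes differed in direction. Kcnab2, the second β subunit, had 131 and 165 on the Ligation and Sham arrays, with only the Sham signal above background, and a log2 difference of -0.33. Kcnip3, which encodes the calcium-binding protein DREAM and also modulates Kv4 channels, had 269 and 196, above background on both arrays, and a difference of 0.46. The 8 further accessory genes were within background on both arrays. Among these, Kcne3, a partner of Kv7 channels in epithelia, had 55.3 and 28.9, a difference of 0.94 that passed 2-fold after quantile normalization and removal of the intensity trend, and Kcnab3 had 65.7 and 36.3. The 3 probe sets of Kcnip2, a subunit of Kv4 channels in the heart, gave differences of 0.46, 0.67 and 0.68, all within background. Of the 12 accessory genes, 2 (16.7%) were over 2-fold lower and none over 2-fold higher, against 2.97% and 4.04% of all named genes. The median difference of the 12 was 0.06, which was -0.06 with housekeeping centring.

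Among the 36 Kv pore genes, Kcna5 and Kcna10 were past 2-fold, both lower. Kcna5 encodes a Kv1 pore subunit that carries delayed rectifier current in arterial smooth muscle. Its signal was 109.7 on the Ligation array, within background, and 265 on the Sham array, above it. The measured log2 difference was -1.27. With the Ligation signal counted at the brightest antigenomic probe set, it was at least 1.69-fold lower. With 64 added to each signal it was no longer past 2-fold, with a log2 difference of -0.92. Kcna2, another Kv1 pore subunit of smooth muscle that also lies along axons, read 642 and 746 on the Ligation and Sham arrays, and its log2 difference was -0.22. The Kv1 genes above background thus did not share the size of the difference.

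The Kv1 genes Kcna1 and Kcna5 differed in sign. Kcna1, a Kv1 subunit best known from myelinated axons, lies next to Kcna5 on chromosome 4, with no other protein-coding gene between them in the GRCr8 annotation. Kcna1 had 247 on the Ligation array and 135 on the Sham array, the latter within background, and was at least 1.64-fold higher. Its measured log2 difference of 0.88 lay opposite to the -1.27 of Kcna5. Kcna6, next to Kcna1 on the other side, had a difference of 0.84 with 35.6 and 19.9, both within background. In the second Kv1 cluster, on chromosome 2, Kcna10 had 35.3 and 79.1, a difference of -1.16 within background on both arrays. It lies next to Kcna2, whose difference of -0.22 had the same sign, and Kcna3, a channel of lymphocytes and microglia on the other side of Kcna2, had 0.27 within background.

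The other Kv pore families were dim. Kcnh2, the ERG channel known from cardiac repolarization, had 135 after ligation, within background, and 191 after sham operation, and was at least 1.22-fold lower. The 32 other pore genes, apart from Kcna1, Kcna2, Kcna5 and Kcnh2, were within background on both arrays. Among them, the 4 silent subunits of the Kcng family had differences from -0.53 to -0.29, and Kcnq1, Kcnq3 and Kcnq5 of the Kv7 family, which includes channels of arterial tone, had differences from 0.31 to 0.50. Kcng1 had 14.4 and 20.7, and Kcnq5 had 64.6 and 52.0, on the Ligation and Sham arrays. Over all 36 Kv pore genes, 2 were over 2-fold lower and none over 2-fold higher, or 5.56% past 2-fold against 7.01% of all named genes. In this class 23 genes were below 0, and the median difference was -0.14. Of the 32 within background, 37.5% were above 0, near the 40.4% of all named genes within background on both arrays.

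**Figure D3:**
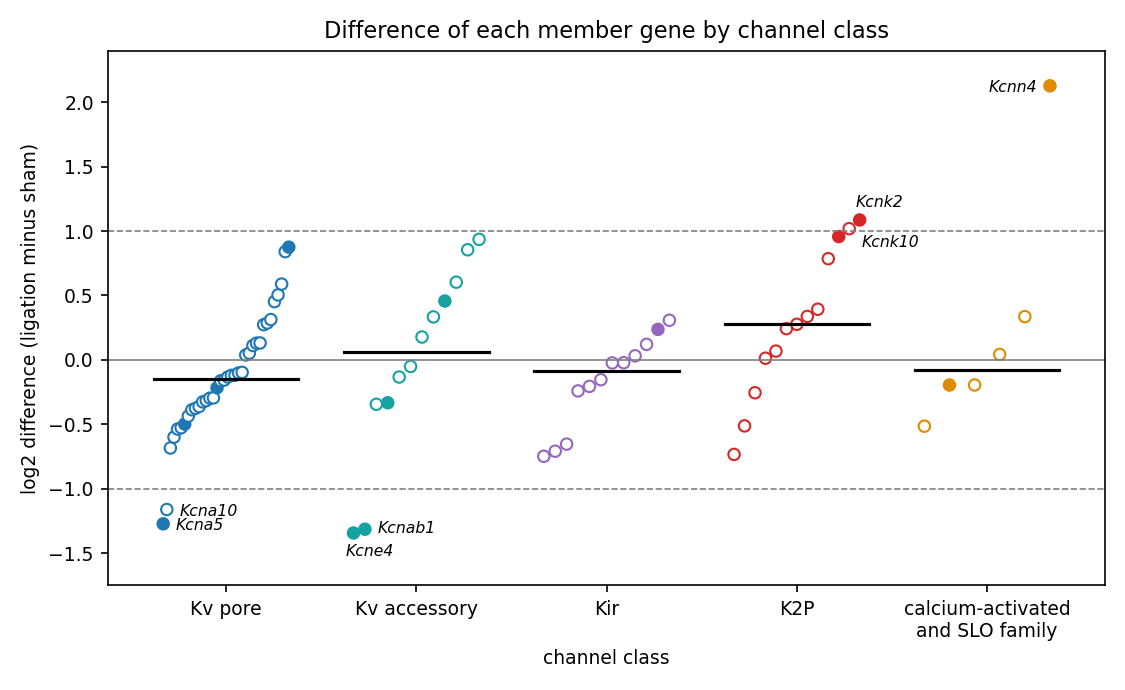
Log2 difference (Ligation minus Sham) of each of the 79 genes, by channel class, ordered within a class. Filled points were above background on at least 1 array, black bars are class medians and dashed lines mark 2-fold. The K2P median of 0.28 is the highest and the Kv pore median of -0.14 the lowest.

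Among the K2P channels was the only one of the 79 genes that was over 2-fold higher with both signals above background. Kcnk2 encodes TREK-1, a leak channel opened by membrane stretch, polyunsaturated fatty acids and heat. Its signal was 7949 on the Ligation array and 3744 on the Sham array. It was 2.12-fold higher after ligation, a log2 difference of 1.09. This is near the threshold, and after quantile normalization, housekeeping centring or removal of the intensity trend the difference was 0.97 in each case. Of all named genes, 5.45% differed by as much in either direction. Kcnk6, which encodes TWIK-2, a channel of endosomes that is also found in arteries and macrophages, had 165 after ligation and 85.0 after sham operation. Only its Ligation signal was above background, so it was at least 1.09-fold higher, with a measured log2 difference of 0.96.

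The other 11 K2P genes were within background on both arrays. Kcnk10, which encodes TREK-2, had 26.1 and 12.9 on the Ligation and Sham arrays, a difference of 1.02 that fell to 0.23 with 64 added to each signal. Such folds between dim signals were not rare, as 4.16% of the named genes within background on both arrays were past 2-fold. Kcnk5 had 107 and 90.8, and Kcnk3, the acid-sensitive TASK-1 channel of pulmonary arteries, had 20.6 and 29.3. Of the 13 K2P genes, 10 (76.9%) were above 0, compared with 48.7% of all named genes. Among those within background, 72.7% were, compared with 40.4% of all named genes within background. The median difference of the 13 was 0.28. The median was above 0 under every scaling tried, from 0.16 with housekeeping centring to 0.42 after quantile normalization, and it was 0.07 with 64 added. Housekeeping centring, a shift of 0.12, could not have turned its sign.

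Of the 12 Kir genes, none was past 2-fold, compared with 7.01% of all named genes, and only Kcnj13 was above background. Kcnj13 encodes Kir7.1, a channel of transporting epithelia such as the choroid plexus and the retinal pigment epithelium. Its signal was 14848.5 on the Ligation array and 12600.5 on the Sham array, a log2 difference of 0.24. Among 8 choroid plexus genes, listed after these values were seen, Ttr had 4110 and 8764, a log2 difference of -1.09. Clic6 had a difference of -1.20 with only the Sham signal above background, and 5 of the 8, Kcne2 included, were within background on both arrays. Kcnj13 and Ttr differed in sign, but most of this list was within background, and what cells gave these signals was not tested.

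The Kir genes best known from arteries were within background. Kcnj2, which encodes the strong rectifier that opens when potassium outside the cell rises, had 156.5 and 126 on the Ligation and Sham arrays, a difference of 0.31. Kcnj12, its close relative, had 74.8 and 125.7, a difference of -0.75. Kcnj16, next to Kcnj2 on chromosome 10 and known from kidney and glia, had 147 and 135. With the median of the antigenomic probe sets as the level of background, 109.2 on both arrays, these 3 genes, Kcnk4 and Kcnn3 were above it as well, which made 18 of 79 genes against 56.8% of all named genes. The median difference of the Kir genes was -0.09, and its sign turned after quantile normalization (0.01) and removal of the intensity trend (0.04).

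Among the 6 calcium-activated and SLO family genes, Kcnn4 was the only one past 2-fold (16.7%, against 7.01% of all named genes). Its Sham signal was within background. Kcnn4 encodes the intermediate conductance channel of endothelium, immune cells and proliferating smooth muscle. Its signal was 191 on the Ligation array, above background, and 43.7 on the Sham array, within it. The measured log2 difference was 2.13, whose size rests on this dim signal. With the Sham signal counted at the brightest antigenomic probe set, it was at least 1.27-fold higher, and counted at the median antigenomic signal the fold was 1.75. The direction was the same under every scaling, and the difference was 1.24 with 64 added to each signal. Housekeeping centring, a shift of 0.12 for every gene, could not have turned a difference of this size.

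None of the other 5 genes of this class was past 2-fold. Kcnn3, the small conductance channel that works beside Kcnn4 in endothelium, had 111 and 108, both within background, and a difference of 0.04 that was -0.08 with housekeeping centring. Kcnt1, a sodium-activated channel of neurons, had 262 after ligation and 299.5 after sham operation, above background on both arrays, with a difference of -0.19. Kcnt2 had 95.8 and 75.9, and it was within background on both arrays, as were Kcnn1, with a difference of -0.51, and Kcnmb3, with -0.19.

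Markers of several cell types also differed between the arrays. Of 12 smooth muscle markers, 6 (50%) were over 2-fold lower, against 2.97% of all named genes. All 12 markers were above background and below 0, with differences from -2.27 to -0.10 and a median of -0.90. Their summed signal was 1.53-fold lower after ligation. The differences of Kcna5, Kcnab1 and Kcne4 lay within the range of these markers. That range is wide, and it also held Kcna2, Kcnab2, Kcnh2 and Kcnt1 and the lower quartile of all named genes (-0.32). Lying within it therefore does not set these 3 genes apart. Kcnma1, the BK pore left out of the 79 genes, had 4197 and 24596 on the Ligation and Sham arrays, a difference of -2.55, and Kcnmb1, its smooth muscle subunit, had -0.51. In the list of 9 BK, KATP and related subunits, Kcnma1 was the only gene past 2-fold (11.1%, against 7.01% of all named genes). The median of the list was -0.34. Of the KATP subunits in this list, Abcc9 had 823 and 497, a difference of 0.73 above background on both arrays, and Kcnj8 had 0.34 with only the Ligation signal above background.

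Markers of endothelium and macrophages moved the other way, while Kcnn4 is known from endothelium, immune cells and proliferating smooth muscle. All 11 endothelial markers were above 0, with a median of 1.46 and a 1.83-fold higher sum. Of these markers, 6 (54.5%) were over 2-fold higher, against 4.04% of all named genes. All 10 macrophage markers were above 0, 3 of them (30%) over 2-fold, with a median of 0.75 and a 1.79-fold higher sum. Of these 3, Cd163 was within background on both arrays. All 10 astrocyte markers (median 1.32, sum 1.59-fold higher) and all 8 oligodendrocyte and Schwann cell markers (median 1.57, sum 2.16-fold higher) were above 0 too. Most of the astrocyte sum came from Gjb6 and Gja1, with differences of 0.56 and 0.31, while Gfap and Aqp4 had 3.96 and 4.12. Most of the other sum came from Pmp22, with 1.15, while Mbp and Mobp had 3.76 and 3.57. These sums thus mainly follow a few bright genes. Kcna1 of myelinated axons and Kcnk2, which astrocytes also express, were above 0 as well, but Kcna2, which also lies along axons, had -0.22. The 8 fibroblast and leptomeningeal markers had a median of 0.59 and a 1.16-fold higher sum. Of the 12 neuron markers 9 were above 0, none past 2-fold, with a median of 0.19 and a 1.13-fold higher sum. Within background on both arrays were 1 astrocyte marker, 2 oligodendrocyte and Schwann cell markers and 5 neuron markers. Emcn of endothelium, Ntsr2 of astrocytes and Mag of oligodendrocytes were above background on the Ligation array only. No marker was listed at 0 on either array, and the part of these cells in the differences of potassium channel genes was not tested.

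**Figure D4:**
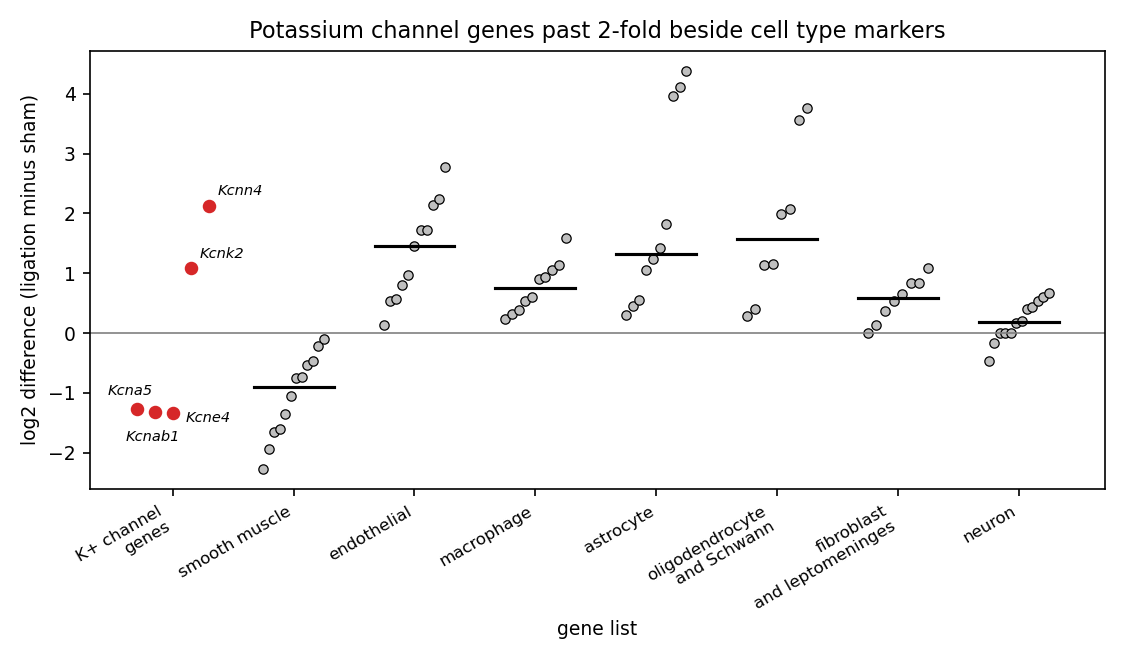
Log2 difference (Ligation minus Sham) of the 5 potassium channel genes past 2-fold and above background on at least 1 array (red), beside markers of cell types (grey, 1 point per gene, bars are medians). Kcna5, Kcnab1 and Kcne4 lie within the range of smooth muscle markers, from -2.27 to -0.10, which also holds the lower quartile of all named genes (-0.32). Kcnk2 and Kcnn4 lie above 0, as do the medians of all other lists shown.

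Among proteins that work with potassium channels, 18 genes of channel partners and regulators were measured, of which 3 were over 2-fold higher and 1 over 2-fold lower. These are 22.2% of the list, against 7.01% of all named genes, in a list chosen with earlier results known. Sgk1, a kinase that raises the surface level of many channels, had 7323 on the Ligation array and 2979 on the Sham array and was 2.46-fold higher. Lgi1, a secreted neuronal protein that slows Kv1 inactivation, had 247 and 119, the latter within background, and the Kv4 partner Dpp6 was within background on both arrays. Amigo2, an adhesion protein related to the Kv2 partner Amigo1, had 899 and 6781, a log2 difference of -2.92, and Amigo1 itself was within background. Dlg1, a scaffold of Kv1 channels, had 3457 and 3442.

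Of 12 genes of potassium pumps and cotransporters, Fxyd5 alone was past 2-fold (8.33%, near the 7.01% of all named genes). Fxyd5, a regulator of the sodium pump, had 79230 on the Ligation array and 34080 on the Sham array, a 2.32-fold difference. The sodium pump subunits Atp1b1, Atp1b2 and Atp1b3 had differences of -0.03, 0.18 and 0.18. The cotransporter Slc12a2 had 2344 and 2841, a difference of -0.28. In the list of arterial potassium channels, 25 genes were measured, of which 2 were over 2-fold higher (Kcnk2 and Kcnn4) and 3 over 2-fold lower (Kcna5, Kcnab1 and Kcne4), with a median of -0.12 and 16 within background on both arrays. The 20% past 2-fold stands beside 7.01% of all named genes, in a list likewise chosen with earlier results known.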

How the data were processed

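Pools of basilar artery RNA were hybridized, 1 per Clariom S array. The authors deposited a linear signal intensity per probe set, and the submitters' processing notes name RMA and Affymetrix Expression Console, with versions and genome build not given in the sources used here. RMA sets background and scale jointly, so folds of dim genes depend on it. Log2 was taken and differences were computed with no further scaling, probe sets of a gene being averaged. Names came from the platform annotation, updated by Entrez identifier against GRCr8 (15049 of 23188 gene probe sets named, all matched). Promoter sequences are from RefSeq. Classes followed the symbols. Thresholds were 2-fold. Named were all potassium channel genes above background or past 2-fold, and some of the arterial list and of the other genes within background. From the other lists, the largest changes and some little-changed genes were named. The members and lists were chosen with earlier results of these data known. With 1 array per group no test was possible, and precision is limited by having 2 arrays. The log2 difference and the median, quantile, housekeeping and lowess scalings were tested on simulated data with planted shifts. The background level, the offset and the averaging per gene were not. Alternatives were median, quantile and housekeeping scaling, lowess (fraction 0.3), an offset of 64, the brightest probe set, 1.5-fold and 3-fold thresholds, other background levels and, added after seeing the data, both arrays above background. Computation used Python 3.11.15 with pandas 2.3.3 and numpy 2.4.6, lowess from statsmodels 0.14.6, and plots from matplotlib 3.10.9.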

Additional observations from a re-analysis of the deposited data

How the results depend on the processing

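No paired analysis was possible because there was 1 array per group. With the SD of 12 housekeeping genes (0.39, log2) in place of a replicate spread, 180 of 186 recomputed differences of 31 genes moved by less than it, and 6 moved more, all with 64 added (Kcna6, Kcna10, Kcng1, Kcnk10, Kcnn4 and Kcnq1). Many of the 180 could not have moved more. Median and housekeeping centring shift every gene by the same amount, below this SD. Each of the 31 genes has 1 probe set, so taking the brightest changes nothing. No difference past 2-fold changed sign. Housekeeping centring, a shift of 0.12, left 1 gene over 2-fold higher (Kcnn4) and 4 lower, so that 20% of calls were higher against 42.9% without it, and centring on the medians gave 2 and 4 (33.3%). Quantile normalization and removal of the intensity trend kept the counts of 3 and 4, with Kcne3 in place of Kcnk2. With 64 added, 2 were higher and 2 lower. At 1.5-fold, 11 were higher and 10 lower, and at 3-fold 1 and 0. The shares of all named genes at these thresholds were not computed, so no result is drawn from these counts. With both arrays above background, 1 was higher and 2 lower. Over members above background on at least 1 array, the medians were 1.02 for K2P (2 genes), -0.82 for Kv accessory (4 genes) and 0.97 for calcium-activated and SLO family genes (2 genes). Kcnk6 and Kcnn4 passed this filter only through the Ligation array, where they were higher, and Kcnab2 only through the Sham array. The filter thus bears on these medians, and no class result is drawn from them. Signals near the antigenomic level limit 66 of the 79 genes.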
